A study of Mus musculus with 6 samples.

Results

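The genes described here are the Wnt ligands, their frizzled receptors, the secreted frizzled-related proteins, the Dickkopf family and the intracellular Dishevelled and Axin proteins. They were taken as every row of the count tables whose gene symbol begins with Wnt and a digit, Fzd, Sfrp, Dkk, Axin or Dvl, which gave 43 of 23282 rows: 19 ligands, 10 frizzled receptors, 4 secreted frizzled-related proteins, 5 genes of the Dickkopf family, 3 Dishevelled and 2 Axin genes. Messenger RNA of the hippocampus was read by QuantSeq, which sequences transcripts from their 3′ ends. Of 6 libraries, 3 were labelled PHF2 t/g and 3 wild type (WT), all from C57BL/6 mice aged 16 weeks. PHF2 removes methyl groups from lysine 9 of histone H3, and the label t/g is taken to mean a Phf2 transgene. The sources used here give neither its promoter, construct and founder line nor whether each library came from its own animal, so a p-value here speaks of spread among libraries.

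Wnt proteins are secreted, lipid-modified signals that bind a frizzled receptor together with the coreceptor Lrp5 or Lrp6. In the canonical arm this recruits Dishevelled and Axin to the membrane, which stops the destruction complex from degrading β-catenin and lets β-catenin act with Tcf and Lef factors on target genes. Secreted frizzled-related proteins bind the ligands, and Dickkopf proteins such as Dkk1 block the coreceptors. In the hippocampus Wnt signals are known for their roles in dendrite growth, synapse assembly and the birth of granule neurons.

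The libraries held 5512171 to 8844718 counts. Phf2 itself was read at 38.7 ± 3.96 CPM in PHF2 t/g, against 37.7 ± 1.92 CPM in WT (CPM, counts scaled to the library total; mean ± SD, n = 3 per group, as throughout), with an edgeR adjusted p of 0.929. An exact two-sided permutation test of the 6 libraries gave p = 0.9, where the smallest p possible is 0.1; tags of a transgene with another 3′ end would be missed, so this does not check the labels. In a multidimensional scaling plot WT replicate 2 lay far from the others (1.08 on axis 1, where they ranged from −0.533 to 0.152), and PHF2 t/g replicate 1 held 292 CPM of the choroid plexus gene Ttr, against 1.29 to 4.46 CPM elsewhere. Scaling matters for small differences: the median log2 fold change of all tested genes was 0.02 with TMM scaling, which is used here, and 0.12 with library size alone.

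A total of 22 of the 43 genes passed the low-count filter and were tested, and 21 did not. Wnt7b fell in PHF2 t/g, and 21 of the 22 did not pass the test (edgeR, adjusted p under 0.05 over all genes). Across all 12831 tested genes 2.27% were called, 0.779% higher and 1.49% lower, so a single call among 22 genes is a count that 1 gene decides. Of the 22 log2 fold changes 12 lay below 0, as did 46.1% of those of all tested genes. Their median was −0.11, against 0.02 for all tested genes; with library size alone 11 lay below 0 and the median was −0.01, against 0.12. With TMM scaling the levels of the groups did not overlap in 3 of the 22 genes (Wnt7b, Dkk3 and Dkkl1, each lower in PHF2 t/g), as they did not in 20.6% of all tested genes.

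QuantSeq gives about 1 tag per transcript whatever its length, so CPM can be set side by side between genes, apart from transcripts whose 3′ end lies outside the annotation. Fzd3 and Dkk3 had the highest means, at 180 and 176 CPM over the 6 libraries, above 92.3% and 92.1% of tested genes. The mean of Wnt7b was 104 CPM, and those of Dvl2, Dvl1 and Axin1 were 63.4, 63.3 and 55.8 CPM. Dkk3 was above Wnt7b in every library, and Wnt7b was above Dvl2, Dvl1 and Axin1 in every library. The libraries of Fzd3 overlapped in range with those of Dkk3 and of Wnt7b, which was above Fzd3 in WT replicate 2. Fzd3 thus has no clear place against Dkk3 and Wnt7b. The libraries of Dvl2, Dvl1 and Axin1 overlapped too, so no clear order holds among Dvl2, Dvl1 and Axin1. Every other tested member was below 20 CPM, down to 1.49 CPM for Fzd1.

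**Figure D1:**
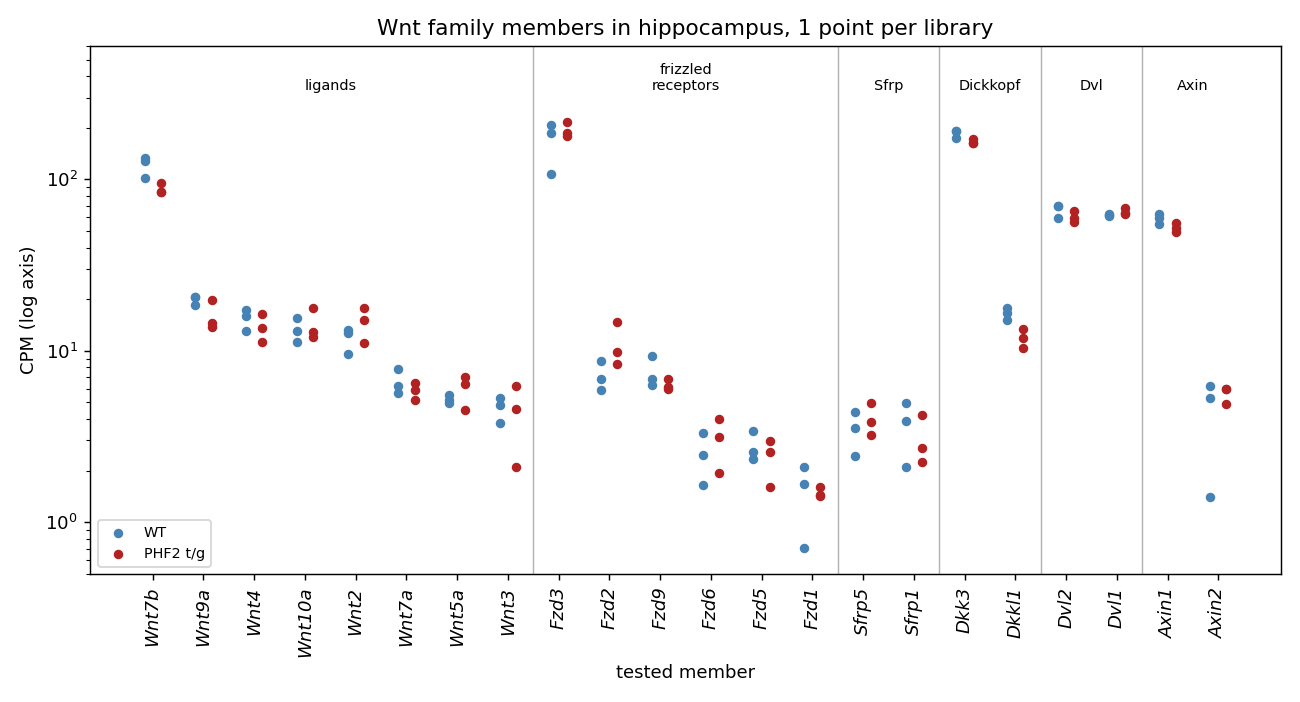
Level of each of the 22 tested genes in CPM (log axis), 1 point per library, WT in blue and PHF2 t/g in red, grouped by role. In each role 1 or 2 genes carry most of the signal: Wnt7b among the ligands, Fzd3 among the receptors and Dkk3 among the Dickkopf genes.

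Among the ligands, Wnt7b was the most abundant. It is a ligand of the canonical arm known to promote dendrite growth in hippocampal neurons and, with Wnt7a, to signal to brain endothelium (chromosome 15, 85535437 to 85581821, GRCm38). Its counts were 759, 672 and 523 in PHF2 t/g replicates 1 to 3 and 672, 1135 and 673 in WT replicates 1 to 3, which are 84.3, 95.4 and 84.1 CPM against 128, 133 and 102 CPM. Every PHF2 t/g library lay below every WT library; the nearest were PHF2 t/g replicate 2 and WT replicate 3. Wnt7b thus fell 1.38-fold, from 121 ± 16.9 to 87.9 ± 6.48 CPM (log2 fold change −0.46, SE 0.10, 95% interval −0.68 to −0.24, edgeR adjusted p = 0.0241). The call was lost when PHF2 t/g replicate 1, 2 or 3 was left out (edgeR adjusted p = 0.219, 0.0696 and 0.118), without WT replicate 1 (0.0614), without both PHF2 t/g replicate 1 and WT replicate 2 (0.159), with library size alone (0.0718) and with a fit that was not robust (0.0616). The log2 fold change stayed between −0.58 and −0.35 in all 15 alternatives. The annotated antisense gene AU022754 shares sequence with a Wnt7b exon far from the Wnt7b 3′ end, and it held 1 to 7 counts per library.

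**Figure D2:**
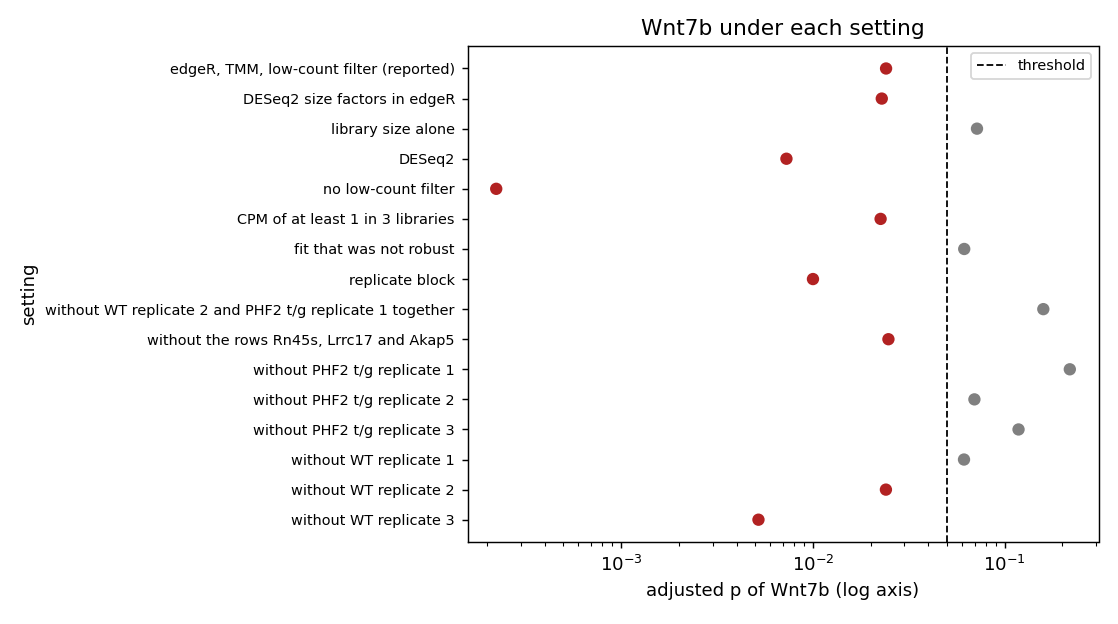
Adjusted p of Wnt7b (log axis) in the reported fit and in 15 alternative settings, with the threshold of 0.05 as a dashed line. Points in red are under the threshold, and 7 of the 15 alternatives, in grey, are above it.

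Markers of other tissues and cells also differed between these libraries, and their part in the Wnt7b difference was not tested. For the counts below, 0.779% of all tested genes were called higher. The summed level of 8 hypothalamus markers was 52.8 to 55.5 CPM in the PHF2 t/g group and 4.84 to 5.76 CPM in WT. Of 4 tested members 3 were called higher: Avp (27.3 against 0.284 CPM on average), Oxt (16.0 against 0.129 CPM) and Trh (6.43 against 1.54 CPM). Pomc was tested and not called (1.65 against 1.77 CPM). Untested were Hcrt and Pmch, with 7 and 12 counts in PHF2 t/g against 9 and 14 in WT, and Gal and Agrp, with 32 and 4 against 5 and 2. The sum of 8 leptomeningeal and fibroblast markers was 142 to 154 CPM against 65.8 to 91.0 CPM (1 of 6 called higher, Mgp). Most of that difference was Mgp itself, at 112 against 43.6 CPM on average. Of the 6 tested markers, 5 had a log2 fold change above 0. The remaining marker, Dcn, was lower and not called (log2 fold change −0.34, edgeR adjusted p = 0.387). The sum of 10 endothelial and mural markers was 153 to 165 CPM against 121 to 142 CPM (2 of 10 called higher). The endothelial marker Cldn5 had lower values in every PHF2 t/g library (11.7 ± 0.926 CPM) than in any WT library (17.9 ± 3.87 CPM) but did not pass (edgeR adjusted p = 0.0791). For 8 striatum markers the sum was 779 to 898 CPM against 595 to 692 CPM (3 of 7 called higher: Penk, Rgs9 and Tac1). Adora2a went the other way without being called (77.8 against 97.1 CPM on average, edgeR adjusted p = 0.169). Drd2 had 4 counts in all and was not tested. For 7 choroid plexus markers the sum was 11.9 to 323 CPM against 6.51 to 10.5 CPM (0 of 2 called by edgeR, 1 of them at an unadjusted p under 0.05). The 323 CPM were those of PHF2 t/g replicate 1 and were mostly Ttr, at 292 CPM there. In PHF2 t/g replicates 2 and 3 Ttr was at 3.69 and 1.29 CPM. Among hippocampal neurons, 5 CA1 pyramidal markers summed to 513 to 581 CPM against 594 to 626 CPM, although Wfs1 was called higher. The sums overlapped between groups for dentate granule cell (19.1 to 39.2 against 19.1 to 31.2 CPM), CA2 and CA3 (346 to 371 against 354 to 414 CPM), astrocyte (2829 to 3166 against 2936 to 3147 CPM), thalamus and habenula (219 to 241 against 215 to 246 CPM) and neocortex and subiculum markers (265 to 280 against 247 to 290 CPM). In the last 2 of these lists 1 of 7 tested markers each was called higher, Tac1 and Fn1. No listed marker was at 0 in all 6 libraries. In tissue RNA, fewer cells of a type and less RNA per cell cannot be told apart.

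The remaining ligands did not pass the test. Wnt9a was read at 13.8, 14.6 and 19.8 CPM in the PHF2 t/g group and 20.6, 18.6 and 20.7 CPM in WT, with groups that overlapped through PHF2 t/g replicate 3 and WT replicate 2 (log2 fold change −0.32, edgeR adjusted p = 0.355). Wnt4 was read at 16.3, 11.2 and 13.5 CPM against 13.1, 16.0 and 17.4 CPM, and the groups overlapped widely. Wnt2 stood at 14.7 ± 3.41 CPM in the PHF2 t/g group and 11.9 ± 2.03 CPM in WT. Wnt10a stood at 14.2 ± 3.04 and 13.3 ± 2.16 CPM. Wnt7a, the closest relative of Wnt7b and a signal for presynaptic assembly, was read at a far lower level, 5.86 ± 0.692 CPM in the PHF2 t/g group and 6.60 ± 1.13 CPM in wild type. The log2 fold change of −0.19 had a 95% interval of −0.65 to 0.28, which includes the value of Wnt7b, and the difference between these 2 ligands was not tested. Wnt5a, a ligand best known for β-catenin-independent signalling, was at 5.96 ± 1.30 and 5.22 ± 0.273 CPM. Wnt3, which astrocytes of the adult hippocampus are known to secrete, was at 4.30 ± 2.09 and 4.64 ± 0.788 CPM; the sign of its log2 fold change (−0.09 with TMM) turned with library size alone.

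Summed over all 19 ligands, the level was 168 ± 4.08 CPM in the PHF2 t/g group and 202 ± 15.5 CPM in WT, and the groups did not overlap. Wnt7b made up 52.3% ± 2.63 of the ligand counts in PHF2 t/g and 59.8% ± 3.93 in WT, with shares that overlapped between the groups. Without Wnt7b the other 18 ligands summed to 80.1 ± 2.82 and 80.6 ± 1.66 CPM, with overlapping groups. The lower ligand total was thus almost all Wnt7b.

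A further 11 ligands were below the low-count filter. Wnt3a and Wnt8a had 0 counts in all 6 libraries, which allows up to 0.0704 CPM (3 counts over the 6 libraries; counting error only). Wnt3a is known for its role in the embryonic hippocampus. Wnt8b, a marker of the embryonic cortical hem, had 7 counts in all, Wnt9b and Wnt11 8 each, Wnt10b 11, Wnt1 15, Wnt5b 18, Wnt16 21, Wnt2b 46 and Wnt6 52. Wnt1 had 4 counts in each PHF2 t/g library and 1 in each WT library, a ratio of 3.66 after scaling with a 95% counting interval of 0.988 to 20.2; in the fit without a low-count filter its edgeR adjusted p was 0.478.

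Of the 6 tested frizzled receptors, membrane proteins that carry the ligand-binding domain, 0 were called by edgeR and 1, Fzd2, had an unadjusted p under 0.05. Fzd3, a receptor known for its part in guiding axon tracts by planar polarity signalling, made up 87.3% ± 0.937 of the frizzled counts in PHF2 t/g and 85.5% ± 5.28 in WT. It was read at 215, 179 and 187 CPM in the PHF2 t/g group and 186, 107 and 206 CPM in WT. WT replicate 2, the library that stood apart, was the low one, and the other 5 overlapped. The log2 fold change of 0.23 (SE 0.28, edgeR adjusted p = 0.783) became −0.017 without WT replicate 2. Fzd2 was read at 8.33, 9.80 and 14.6 CPM in the PHF2 t/g group and 6.85, 8.69 and 5.90 CPM in WT, so that PHF2 t/g replicate 1 lay within the WT range with TMM, while with library size alone the groups did not overlap (at least 8.71 CPM in each PHF2 t/g library and at most 8.37 CPM in each WT library). Its log2 fold change of 0.57 was the highest of the 22, but it did not pass (SE 0.23, 95% interval 0.09 to 1.06, edgeR adjusted p = 0.237, unadjusted p = 0.0224). Fzd9, a receptor studied in hippocampal progenitors, was read at 6.88, 5.96 and 6.11 CPM in the PHF2 t/g group and 6.28, 9.28 and 6.81 CPM in WT, with WT replicate 2 the high library.

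Fzd6, Fzd5 and Fzd1 were read at 1.49 to 3.02 CPM on average in either group, and their groups overlapped. At that level the intervals were wide: for Fzd1 the log2 fold change of 0.08 had a 95% interval of −0.85 to 1.01. Fzd8, Fzd10, Fzd7 and Fzd4, the receptor for Norrin in retinal and brain vessels, had 59, 43, 42 and 40 counts over all 6 libraries and were not tested. None of these 4 had groups that separated.

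**Figure D3:**
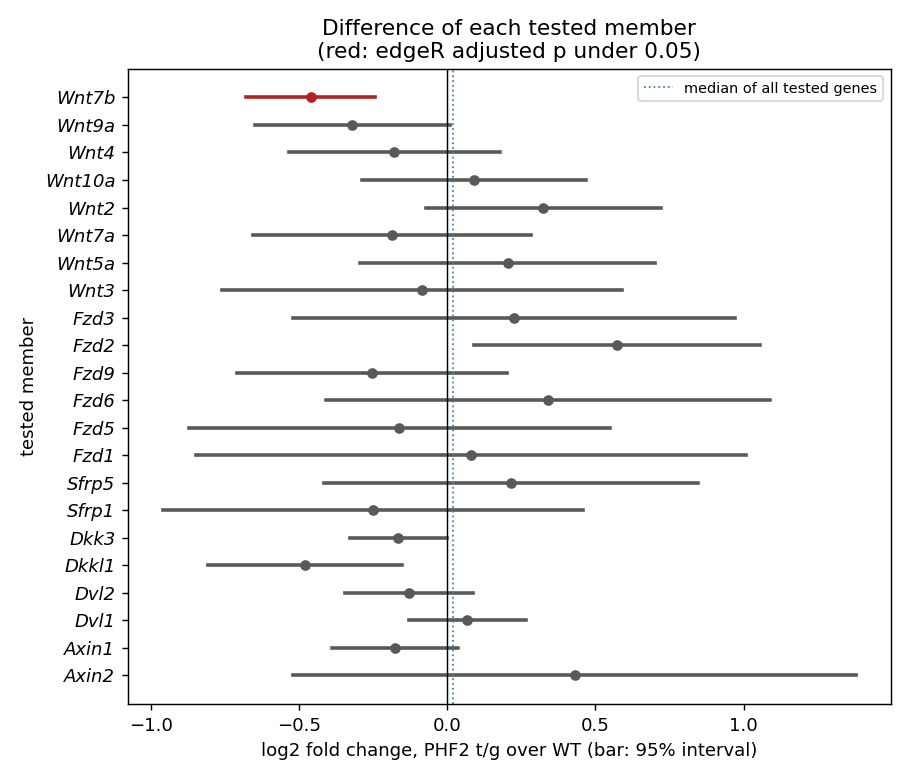
Log2 fold change of PHF2 t/g over WT for each of the 22 tested genes with its 95% interval (edgeR), with the median of all tested genes as a dotted line. Wnt7b, in red, passed the test; the intervals of Dkkl1, Dkk3 and Fzd2 also lie to one side of 0 but these did not pass after adjustment.

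The extracellular inhibitors were led by Dkk3. Dkk3 is a divergent member of the Dickkopf family that, unlike Dkk1, is not an established blocker of Lrp6 (chromosome 7, 112116019 to 112159482). It was read at 171, 163 and 162 CPM in the PHF2 t/g group and 191, 192 and 175 CPM in WT. All PHF2 t/g libraries lay below all WT libraries, by a narrow margin between PHF2 t/g replicate 1 and WT replicate 3, and the groups overlapped when scaled by library size alone. Its log2 fold change was −0.17 (SE 0.08, 95% interval −0.33 to −0.00197, edgeR adjusted p = 0.332, unadjusted p = 0.0476). Across all tested genes 14.7% had an unadjusted p under 0.05.

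Dkkl1, a Dickkopf-like gene first known from testis (chromosome 7, 45207525 to 45212165), was read at 11.9, 10.4 and 13.4 CPM in the PHF2 t/g group and 15.2, 16.6 and 17.7 CPM in WT. The groups did not overlap with either scaling. The log2 fold change of −0.48, a 1.40-fold lower level, was as large as that of Wnt7b at a far lower abundance, and it did not pass (SE 0.16, 95% interval −0.81 to −0.15, edgeR adjusted p = 0.124, unadjusted p = 0.00625). Dkk1, the best-studied blocker of Lrp5 and Lrp6, had 0 counts in all 6 libraries. Dkk4 had 2 counts, both in PHF2 t/g, and Dkk2 had 25.

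The secreted frizzled-related proteins were low throughout, at 8.96 ± 0.926 CPM summed over 4 genes in PHF2 t/g against 9.78 ± 0.571 CPM in WT. Sfrp5 was read at 3.22, 3.83 and 4.99 CPM in the PHF2 t/g group and 4.38, 3.52 and 2.42 CPM in WT. Sfrp1 was read at 4.22, 2.70 and 2.25 CPM against 2.09, 3.88 and 4.99 CPM. The groups overlapped in both, with edgeR adjusted p of 0.795 and 0.786. Sfrp2 and Sfrp4 were below the filter, with 67 and 28 counts.

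Inside the cell, Dvl1 and Dvl2, which relay the signal from the receptor, were at like levels and were not called. Dvl1 was read at 68.2, 62.5 and 63.6 CPM in the PHF2 t/g group and 62.2, 60.7 and 62.6 CPM in WT (log2 fold change 0.07, 95% interval −0.13 to 0.26, edgeR adjusted p = 0.796). Dvl2 was read at 59.5, 65.5 and 56.6 CPM against 69.7, 69.7 and 59.3 CPM (−0.13, −0.34 to 0.09, edgeR adjusted p = 0.612). Dvl1 overlaps the 3′ end of the taste receptor gene Tas1r3, which held 178 to 259 counts per library, and Dvl2 transcripts in GENCODE M21 overlap Acadvl, so these rows are uncertain, since the sources do not say if strand was used in counting. Dvl3 had 9 counts in all 6 libraries.

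Axin1, the scaffold of the destruction complex, was read at 55.7, 52.1 and 49.6 CPM in the PHF2 t/g group and 54.8, 63.1 and 59.8 CPM in WT. The groups overlapped through PHF2 t/g replicate 1 and WT replicate 1 (log2 fold change −0.18, 95% interval −0.39 to 0.04, edgeR adjusted p = 0.442). Axin2, a scaffold that β-catenin itself induces and that is widely used as a readout of the canonical arm, was read at 4.89, 5.96 and 5.95 CPM in the PHF2 t/g group and 5.33, 1.41 and 6.20 CPM in WT. WT replicate 2 was again the low library, with 12 counts, and the other 5 overlapped. The log2 fold change of 0.43 (SE 0.42, edgeR adjusted p = 0.704) became −0.062 without WT replicate 2.

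**Figure D4:**
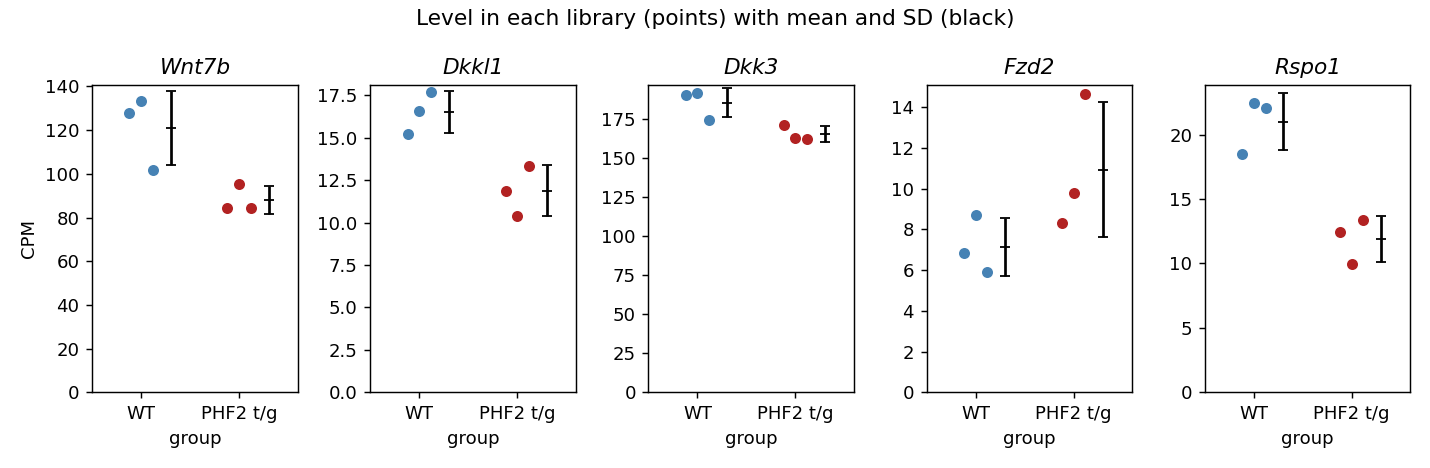
Level of Wnt7b, Dkkl1, Dkk3, Fzd2 and the R-spondin gene Rspo1 in CPM in each library (points, WT blue, PHF2 t/g red) with the mean and SD of each group in black, each axis starting at 0. With TMM, as plotted, the groups do not overlap for Wnt7b, Dkkl1, Dkk3 and Rspo1 and overlap for Fzd2; with library size alone those of Dkk3 overlap and those of Fzd2 do not. Wnt7b and Rspo1 passed the test.

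Other genes of the pathway were taken from 7 lists with 91 names, of which 90 were in the tables and 74 were tested. Of these 74, 0 rose, 1 fell and 73 did not pass the test (edgeR), where 2.27% of all tested genes were called. At an unadjusted edgeR p under 0.05, 2 were higher and 10 lower. Over all 12831 tested genes 862 were higher and 1020 lower at that p, 14.7% together. With TMM the median log2 fold change of the 74 was −0.06, against 0.02 over all tested genes. Of the 74, 45 lay below 0, against 46.1% of all tested genes. With library size alone the median was 0.05, against 0.12, and 28 lay below 0.

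The gene that fell was Rspo1, an R-spondin, a secreted amplifier that binds Lgr receptors and removes the ubiquitin ligases Rnf43 and Znrf3 from the surface, so that frizzled receptors persist (chromosome 4, 124986401 to 125009102). It was read at 12.4, 9.94 and 13.4 CPM in the PHF2 t/g group and 18.5, 22.4 and 22.1 CPM in WT. The groups were well apart in every library, also with library size alone. Rspo1 fell 1.77-fold (log2 fold change −0.83, SE 0.16, 95% interval −1.15 to −0.50, edgeR adjusted p = 0.00764). This call was lost when PHF2 t/g replicate 1 (edgeR adjusted p = 0.0753) or replicate 2 (0.0810) was left out. DESeq2 gave it no adjusted p, and its log2 fold change there was −0.83 with an unadjusted p of 5.48e-05.

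In the same list of 5 tested genes the second R-spondin, Rspo2, was read at 31.3 ± 4.21 CPM in the PHF2 t/g group and 43.6 ± 8.92 CPM in WT. It did not pass (log2 fold change −0.49, edgeR adjusted p = 0.0985). Rspo2 passed with the replicate number as a block, without a low-count filter and without WT replicate 3. It did not pass in any other alternative, and with library size alone its groups overlapped. Rspo3 was at 11.95 ± 1.11 and 13.5 ± 1.63 CPM. Lgr4, an R-spondin receptor, was at 43.7 ± 2.15 and 34.9 ± 1.92 CPM with groups that did not overlap (log2 fold change 0.33, edgeR adjusted p = 0.131), and it passed with library size alone. Lgr5, Lgr6 and Rnf43 had 57, 29 and 44 counts and were not tested.

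Of 5 tested coreceptors and alternative receptors 0 were called by edgeR, with 1 at an unadjusted p under 0.05 and a median of 0.27. The smallest p was that of Ryk, a receptor-like kinase for Wnt ligands, at 127 ± 23.9 CPM in the PHF2 t/g group and 153 ± 8.53 CPM in WT. The coreceptor Lrp6, whose log2 fold change is the list median of 0.27, was at 29.0 ± 2.49 and 24.6 ± 9.33 CPM. WT replicate 2 was its low library, at 14.2 CPM against 32.4 and 27.1 CPM in WT replicates 1 and 3. Lrp5 was at 2.25 ± 0.567 and 1.93 ± 1.06 CPM. Adgra2 and Reck, which take part in the response of brain endothelium to Wnt7a and Wnt7b, were low. Adgra2 was at 2.55 ± 0.287 and 1.92 ± 0.693 CPM and did not pass; its 3′ end overlaps Brf2 on the other strand, so without strand its row is uncertain. Reck had 36 counts and was not tested.

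Of 7 tested genes for ligand secretion and extracellular modulation 0 were called by edgeR, with 1 at an unadjusted p under 0.05 and a median of −0.02. That gene was Frzb, a further frizzled-related inhibitor whose symbol lies outside the Sfrp series. At 79.8 ± 9.27 CPM in the PHF2 t/g group and 95.4 ± 12.5 CPM in WT it was more abundant than the 4 Sfrp genes together. Wls, the carrier of Wnt proteins to the cell surface, was at 25.6 ± 2.84 and 28.4 ± 4.0 CPM. Among 23 tested genes of the destruction complex and its kinases 0 were called by edgeR, with a median of −0.08. At an unadjusted p under 0.05, 1 was higher and 5 were lower, where 14.7% of all tested genes had such a p. Dact3, a Dishevelled-binding inhibitor, was at 88.5 ± 10.9 and 109 ± 8.69 CPM (edgeR adjusted p = 0.144), and Amer1, which brings the complex to the membrane, at 12.2 ± 1.03 and 15.7 ± 0.92 CPM (0.252).

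Among 15 tested genes of β-catenin and its nuclear partners 0 were called by edgeR, with 1 at an unadjusted p under 0.05 and a median of −0.10. Ctnnbip1, an inhibitor that keeps β-catenin from Tcf factors, was at 236 ± 7.07 CPM in the PHF2 t/g group and 283 ± 20.9 CPM in WT, with groups that did not overlap (log2 fold change −0.26, edgeR adjusted p = 0.0917). Ctnnb1, which encodes β-catenin, was at 490 ± 29.3 and 499 ± 10.2 CPM, with a 95% interval of −0.19 to 0.13 for its log2 fold change. Ctnnbip1 and Ctnnb1 overlap a gene on the other strand (Gm13066 and Ulk4), so without strand their rows are uncertain. Among 14 tested genes of planar polarity and the calcium arm 0 were called or had an unadjusted p under 0.05 by edgeR, with a median of −0.01; Nfatc1 (1.28 ± 0.281 and 2.43 ± 1.07 CPM) and Vangl2 (2.85 ± 0.197 and 4.45 ± 1.49 CPM) had the smallest p.

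Of 8 tested common β-catenin target genes other than Axin2, 0 were called or had an unadjusted p under 0.05 by edgeR, and their median was −0.03. Prox1, also a granule cell factor, was at 4.26 ± 2.28 CPM in the PHF2 t/g group and 6.36 ± 2.13 CPM in WT, and Bambi at 2.45 ± 0.707 and 1.65 ± 1.06 CPM. Ccnd1, the cyclin D1 gene, was the most abundant of them at 114 ± 13.4 and 120 ± 13.6 CPM, with a 95% interval of −0.29 to 0.15 for its log2 fold change. The 3′ end of Ccnd1 overlaps LTO1 on the other strand, so without strand its row is uncertain. No difference of a target gene was thus detected beyond the spread between libraries, and Sp5, Myc, Lgr5, Notum and Rnf43 were too low to test.

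**Figure D5:**
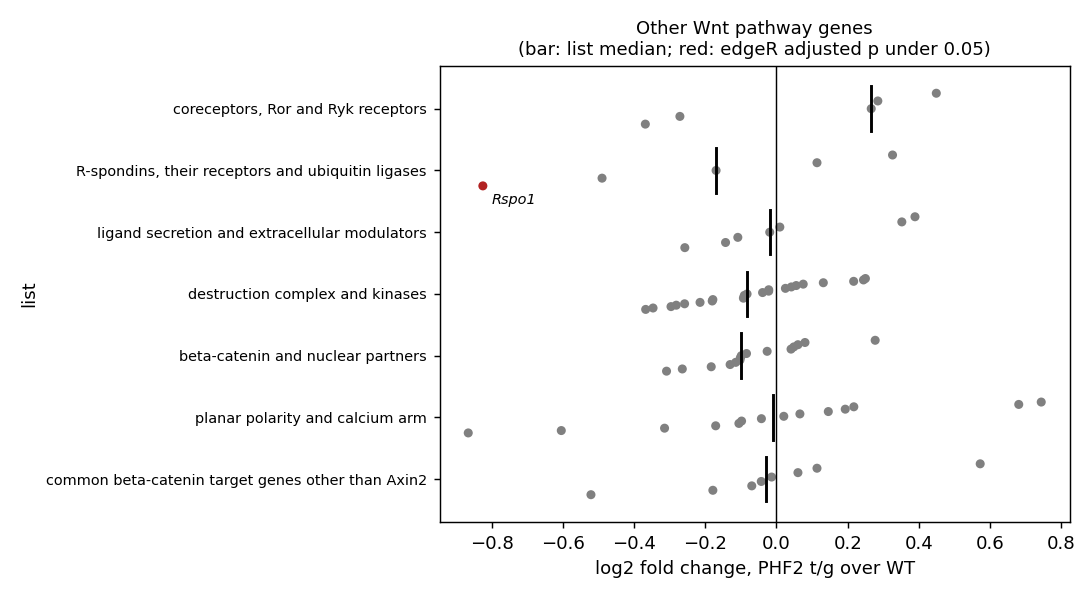
Log2 fold change of PHF2 t/g over WT for the tested genes of each of 7 lists of other Wnt pathway genes, 1 point per gene, with the median of each list as a black bar. Rspo1, in red, is the gene that passed the test; the list medians lie between −0.17 and 0.27.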

How the data were processed

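Hippocampal RNA was extracted with Trizol and made into QuantSeq 3′ end libraries, per the labels' protocols. Each library has its own deposited file of raw, unnormalized counts by gene symbol. Bowtie2, edgeR and the build mm10 are named in the submitters' processing notes; the sources used here give no counting program, annotation, filter or strand setting. Groups and replicate numbers came from the sample titles.

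Here rows were kept by filterByExpr (minimum count 10), scaled by TMM and fitted with edgeR 4.0.16 in R 4.3.3 (robust quasi-likelihood, genotype only). P-values were adjusted by Benjamini-Hochberg over all 12831 tested rows, and only the rows of interest were read out. SEs were derived from the F statistic. CPM uses the TMM-scaled library size. The procedure was tested on simulated data. These had the same dispersion for every gene, planted changes larger than those of Wnt7b and Rspo1, and no library that stood apart. That test thus does not speak for the calls made here. Gene coordinates are those of RefSeq for GRCm38.p6. Intervals from counts cover counting error only.

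The genes, lists and tests were chosen with earlier results of these data known. Genes described by library are those past the threshold, those with an unadjusted p under 0.05 and groups that do not overlap, and the most abundant tested genes of each role; in each pathway list those past the threshold or, failing any, up to 2 genes of lowest p. Other genes (such as the remaining ligands, the coreceptors, Lgr4, Ctnnb1 and Ccnd1) were named after their values were seen. Alternatives were DESeq2's size factors in edgeR, library size alone, DESeq2 1.42.0, a minimum of 1 CPM in 3 libraries or no filter at all, the quasi-likelihood fit without its robust option, a block for replicate number, leaving out each library in turn or 2 together, and leaving out the dominant rows Rn45s, Lrrc17 and Akap5.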

Additional observations from a re-analysis of the deposited data

How the results depend on the processing

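Over all genes 291 were called (100 higher, 191 lower); the split was 207 and 70 with library size alone and 50 and 220 with DESeq2. The count was 606 without a low-count filter, 149 with a fit that was not robust, 140 without both PHF2 t/g replicate 1 and WT replicate 2, and 49 to 392 with 1 library left out. The 1 call among the Wnt family genes became 0 with library size alone, with a fit that was not robust and without those 2 libraries together, and was 0 to 1 with 1 library left out. The 1 call among the other pathway genes became 2 with library size alone (Rspo1 and Lgr4), 2 without a low-count filter, 0 with DESeq2, which gave an adjusted p to 39 of 90 of them and none to Rspo1, and 0 to 2 with 1 library left out. With 1 library left out, the call beside Rspo1 was Csnk1e (without WT replicate 1), Dact3 (without WT replicate 2) or Rspo2 (without WT replicate 3). The cause of these moves was not tested. Of 15 named genes, all but Wnt7b and Rspo1 were uncalled in the reported fit, so keeping their side meant only staying uncalled. DESeq2 values without an adjusted p were left out of the tally, and DESeq2 gave one to 6 of 40 Wnt family genes. Under the alternatives the 15 genes gave 216 log2 fold changes, of which 204 kept their direction and side of the threshold. A further 9 (of Wnt7b and Rspo1) kept only the direction, and 3 reversed. Those were Fzd3, at −0.10 without both of those libraries and −0.017 without WT replicate 2 (−0.017 to 0.41 with any 1 library left out), and Axin2, at −0.062 without WT replicate 2 (−0.062 to 0.85).

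With the replicate number as a block, 299 genes, 1 Wnt family gene and 2 other pathway genes (Rspo1 and Rspo2) were called. Same-numbered libraries of the 2 groups had deviations that correlated at −0.00445, 0.123 and 0.0846. Replicates 2 and 3 correlated best with their own number, and replicate 1 did not. As this did not hold for every number, the numbers were not taken to pair the libraries. Depth limits the 21 untested family genes, none of which had more than 67 counts over the 6 libraries.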

Other observations

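Proteins that help frizzled signals outside the Wnt ligands were looked up after the values above were seen. All 10 listed genes of Norrin, its receptor partner Tspan12, the glypicans and the heparan sulfatases were tested, and 0 were called by edgeR. Of the 10, 2 had an unadjusted edgeR p under 0.05, as did 14.7% of all tested genes. The median log2 fold change was 0.11. Ndp, which encodes Norrin, the ligand of Fzd4, was read at 13.8 ± 1.31 CPM in the PHF2 t/g group and 15.1 ± 2.99 CPM in WT. It was thus a more abundant frizzled ligand than Wnt7a, while Fzd4 had 40 counts. The glypicans Gpc3 (4.43 ± 0.727 and 2.70 ± 0.935 CPM) and Gpc6 (5.56 ± 0.866 and 3.82 ± 0.240 CPM), cell surface proteoglycans that bind Wnt proteins, had groups that did not overlap but did not pass (edgeR adjusted p = 0.263 and 0.313). Groups did not overlap in 20.6% of all tested genes. Gpc1, the most abundant glypican, was at 85.8 ± 4.48 and 93.6 ± 13.0 CPM.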
